A study of Rattus norvegicus with 32 samples.

Results

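The 10 genes described here are the 2 corticosteroid receptors Nr3c1 and Nr3c2, 7 genes that activated glucocorticoid receptor is known to induce (Fkbp5, Sgk1, Tsc22d3, Ddit4, Zbtb16, Pdk4 and Cdkn1a), and Hsd11b1, which regenerates active hormone inside cells. They were chosen by symbol from the 34322 gene symbols of a count table, by a rule that uses none of their measured values, though the set was drawn up with earlier results of these data known. All 10 were found in it. Corticosterone, the main glucocorticoid of the rat, is released from the adrenal cortex during stress and enters the brain. It binds the mineralocorticoid receptor Nr3c2 with high affinity and the glucocorticoid receptor Nr3c1 with lower affinity. The bound receptors leave a chaperone complex, move to the nucleus and act on genes through DNA elements or through other transcription factors.

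The tissue was the nucleus accumbens shell of Rattus norvegicus, a ventral striatal region rich in medium spiny neurons that takes part in reward, aversion and the response to cues. All rats received shock-based fear conditioning in the presence of a cue, which was neutral or was lemon odour (the anxiety cue), and the cue was later present in tests of anxiety-like behaviour. Cannabidiol (CBD), a plant cannabinoid, or vehicle was given before those tests, and tissue was collected after the last shock. Crossing drug with cue gave 4 groups of 8 polyA-selected RNA-seq libraries. All 32 libraries are labelled wild type. The labels used here give no strain, sex, age, dose or hour of collection, and no group went without shock. They do not say that each library came from a separate animal, so p-values here measure only the spread between libraries, which may be technical. Libraries held between 11.65 M and 24 M assigned reads, and a member's lowest count in any library was 36 reads (Pdk4).

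The comparisons asked how the anxiety cue differed from the neutral one in vehicle-treated rats and under CBD, how CBD differed from vehicle under each cue, and whether the cue difference depended on CBD (the interaction). None of the 10 genes differed past an adjusted p of 0.05 in any of the 5 comparisons in edgeR's quasi-likelihood test with Benjamini-Hochberg adjustment over the 17059 genes tested. The lowest adjusted p of a member, 0.105, belonged to Nr3c2 and Tsc22d3 in the comparison of CBD with vehicle under the neutral cue. In that comparison the log2 estimates were 0.38 for Nr3c2, -0.37 for Tsc22d3, -0.40 for Zbtb16, -0.50 for Pdk4 and -0.42 for Cdkn1a. With covariates for tissue make-up they were 0.09, -0.08, -0.05, 0.11 and -0.40. Fkbp5, Nr3c2 and Hsd11b1 had lower medians, and Tsc22d3, Zbtb16 and Pdk4 higher ones, in 6 libraries with low Drd1 and high Slc17a6, a marker of glutamatergic neurons outside the striatum. Those libraries were unevenly spread over the groups.

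The 250 bases upstream of the annotated start are printed for 4 members, because the levels of Tsc22d3 were correlated with those of Pdk4 and Ddit4 over 25 libraries, while no pair with Fkbp5 passed the same test. They are RefSeq sequences of build GRCr8, each read 5′ to 3′ on the gene's own strand, and end at the base before the start. Capitals mark ACANNNTGT, the core of the receptor's palindrome, in Tsc22d3, and a CCAAT box on either strand (CCAAT or ATTGG) in the other sequences. Of the 3 annotated Tsc22d3 starts, the one printed was picked because its window held this core, which the others lacked.
Tsc22d3, chrX:109065431-109065680, minus strand, the second of 3 annotated starts: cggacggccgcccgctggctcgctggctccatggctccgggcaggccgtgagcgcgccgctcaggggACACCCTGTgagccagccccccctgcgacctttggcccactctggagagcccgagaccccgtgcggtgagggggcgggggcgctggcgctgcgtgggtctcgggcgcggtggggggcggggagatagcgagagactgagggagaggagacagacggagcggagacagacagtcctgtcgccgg
Pdk4, chr4:34568330-34568579, minus strand: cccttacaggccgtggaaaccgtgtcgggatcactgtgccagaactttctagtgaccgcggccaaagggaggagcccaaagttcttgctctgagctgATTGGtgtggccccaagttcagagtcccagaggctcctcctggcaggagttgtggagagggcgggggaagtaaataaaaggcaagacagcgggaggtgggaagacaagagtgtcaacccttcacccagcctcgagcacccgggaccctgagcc
Ddit4, chr20:28437038-28437287, minus strand: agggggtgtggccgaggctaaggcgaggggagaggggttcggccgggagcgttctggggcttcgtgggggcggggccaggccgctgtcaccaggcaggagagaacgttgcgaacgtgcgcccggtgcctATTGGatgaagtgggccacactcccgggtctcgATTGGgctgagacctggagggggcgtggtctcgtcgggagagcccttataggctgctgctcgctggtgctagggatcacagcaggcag
Fkbp5, chr20:6543556-6543805, minus strand: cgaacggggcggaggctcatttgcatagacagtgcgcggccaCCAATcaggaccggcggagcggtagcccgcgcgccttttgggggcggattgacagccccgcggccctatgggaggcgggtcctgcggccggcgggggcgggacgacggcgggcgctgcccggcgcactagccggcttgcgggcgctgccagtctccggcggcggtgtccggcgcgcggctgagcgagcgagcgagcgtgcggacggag

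RefSeq promoter windows were matched for 7 of the 10 genes, with 12 windows in all. Nr3c2, Zbtb16 and Hsd11b1 were not matched. The full palindrome of the glucocorticoid response element, AGAACA followed after 3 bases by its reverse complement, was in 0 of the 12 windows and in 0.012% of the 33469 windows of this length. AGAACA alone, searched on both strands, was also in 0 of the 12, against 17.5% of all windows. The core ACANNNTGT, which reads the same on both strands and lies inside the full palindrome, was found once among the members, at 183 bases before the second Tsc22d3 start, and in 5.81% of all windows. CCAAT boxes, found in 34.0% of all windows, lay 153 bases before the Pdk4 start, 121 and 88 bases before the Ddit4 start and 208 bases before the Fkbp5 start. The third Tsc22d3 window, not printed, held overlapping matches on opposite strands at 188 and 185 bases, which are not separate boxes. The printed Fkbp5 window held 41 CpG dinucleotides, that of Tsc22d3 27, that of Ddit4 19 and that of Pdk4 9. Elements farther from the start were not searched.

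Levels are given in CPM, read counts scaled to a fixed library total and adjusted by the trimmed mean of M-values. Transcript lengths were not used, so levels are compared between groups and not between genes. Nr3c1 ran from 62.1 to 104.5 CPM over the 32 libraries. Its lowest, median and highest levels were 63.9, 78.6 and 93.7 CPM in vehicle with the neutral cue, and 77.8, 84.4 and 104.5 CPM in CBD with the neutral cue. With the anxiety cue they were 62.1, 88.7 and 96.1 CPM in vehicle and 75.7, 83.1 and 99.98 CPM in CBD. All 4 groups overlapped, and the order of the group means was the same as that of Nr3c2, the group of vehicle with the neutral cue being lowest and that of CBD with the neutral cue highest.

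Nr3c2, the mineralocorticoid receptor, was at 35.7, 56.2 and 65.8 CPM (lowest, median, highest) in vehicle with the neutral cue. In CBD with the neutral cue it was at 63.1, 69.2 and 78.2 CPM. In the anxiety-cue groups it was at 44.5, 68.5 and 77.6 CPM in vehicle and at 46.3, 65.5 and 74.3 CPM in CBD. The neutral-cue groups overlapped narrowly, since the lowest CBD library lay below the highest vehicle library. The CBD group was also the tightest, with a mean of 70.3 ± 4.70 CPM (SD, n = 8) against 54.1 ± 11.3 (SD, n = 8) in vehicle.

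Fkbp5 encodes a co-chaperone that lowers the affinity of the receptor for hormone and is itself induced by it, which closes a short feedback loop. It was at 46.9, 81.6 and 104.5 CPM in vehicle with the neutral cue and at 79.8, 88.6 and 116.7 CPM in CBD with the neutral cue. Under the anxiety cue it was at 43.3, 98.5 and 114.0 CPM in vehicle and at 56.2, 75.7 and 117.4 CPM in CBD. All groups overlapped, and each group other than CBD with the neutral cue held 1 to 3 libraries at 56.3 CPM or less.

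Tsc22d3 encodes GILZ, an anti-inflammatory leucine zipper protein. It was at 62.5, 85.1 and 113.1 CPM in vehicle with the neutral cue and at 57.5, 68.4 and 76.6 CPM in CBD with the neutral cue. The anxiety-cue levels were 63.1, 75.0 and 94.6 CPM in vehicle and 62.1, 70.7 and 100.4 CPM in CBD. Vehicle with the neutral cue held the highest library and the widest SD, and its range overlapped those of the other groups.

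Zbtb16 encodes PLZF, a zinc finger repressor. It was at 28.2, 48.1 and 74.2 CPM in vehicle with the neutral cue, and at 25.5, 36.9 and 45.1 CPM in CBD with the neutral cue. Its anxiety-cue levels were 27.0, 39.9 and 71.4 CPM in vehicle and 24.3, 36.8 and 64.0 CPM in CBD. Pdk4 encodes a kinase that switches off pyruvate dehydrogenase and so spares glucose. It was low in read number, at 3.79, 6.09 and 8.82 CPM in vehicle with the neutral cue and at 2.33, 4.30 and 5.67 CPM in CBD with the neutral cue. Under the anxiety cue it was at 3.72, 5.55 and 9.46 CPM in vehicle and at 2.74, 5.16 and 8.73 CPM in CBD. For both genes the neutral-cue CBD group lacked the high libraries seen in each other group.

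Cdkn1a encodes the cyclin-dependent kinase inhibitor p21, which is also a target of p53. It was at 7.42, 9.76 and 12.4 CPM in vehicle with the neutral cue and at 5.68, 7.49 and 9.38 CPM in CBD with the neutral cue. In the anxiety-cue groups it was at 6.45, 8.91 and 12.0 CPM in vehicle and at 6.41, 9.45 and 10.7 CPM in CBD. The neutral-cue CBD group was the lowest of the 4 by mean, and it overlapped each of the others.

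The remaining members had group means that overlapped within their SDs. Sgk1, a kinase that controls ion channels and transporters, had group means from 84.5 ± 12.9 to 98.6 ± 31.8 CPM (SD, n = 8 each). Ddit4, an inhibitor of mTORC1 signalling, had group means from 95.7 ± 11.9 to 103.3 ± 13.3 CPM, and at 11.0% it had the lowest coefficient of variation over the 32 libraries of any member, against 35.5% for Pdk4. Hsd11b1, which converts inert 11-dehydrocorticosterone to corticosterone, had group means from 29.7 ± 4.40 to 32.6 ± 5.81 CPM.

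**Figure D1:**
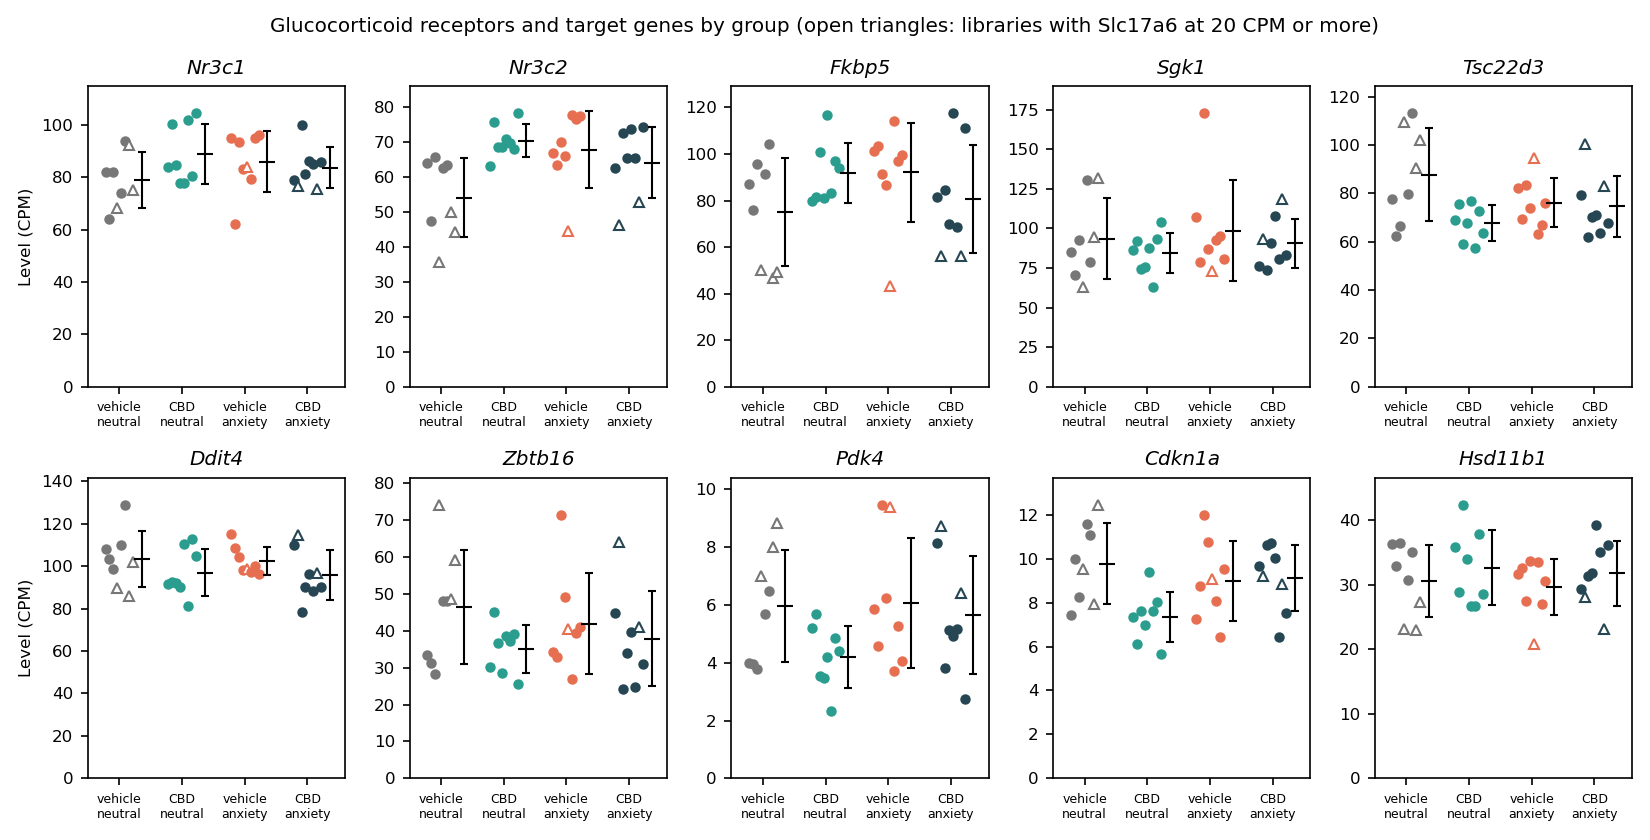
Levels (CPM) of the 10 genes in every library of the 4 groups; circles and open triangles are libraries, the triangles marking the 6 libraries with Slc17a6 at 20 CPM or more, and the black bar is the group mean ± SD. The 6 triangles hold the lowest Fkbp5 levels, from 43.3 to 56.3 CPM, and every gene overlaps between all groups.

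Tissue make-up was checked against marker genes before the comparisons. All 14 medium spiny neuron markers were detected in each group, but Drd1, a dopamine receptor of these neurons, ran from 56.6 to 474.8 CPM. Slc17a6 was at 20 CPM or more (before scaling) in 6 libraries, which were libraries 2 and 7 of CBD with the anxiety cue, 5 of vehicle with that cue, and 4, 7 and 8 of the neutral-cue vehicle group. The cortical marker Slc17a7 was at 100 CPM or more in CBD neutral-cue library 6. The fat marker Plin1 was at 5 CPM or more in 10 libraries (5 vehicle neutral, 3 vehicle anxiety, 2 CBD anxiety and 0 CBD neutral). The liver marker Alb was at 20 CPM or more in 10 libraries (0 vehicle neutral, 2 vehicle anxiety, 4 CBD anxiety and 4 CBD neutral). The summed level of 10 subcortical neuron markers ran from 165.8 to 474.5 CPM in vehicle with the neutral cue and from 124.4 to 189.0 CPM in CBD with that cue, and from 118.6 to 313.5 CPM in vehicle and 135.9 to 312.6 CPM in CBD with the anxiety cue, with none of the 10 at 0 throughout a group. That of 9 fat markers ran, in the same order, to 195.6, 46.2, 126.9 and 97.4 CPM from lowest values of 35.5 to 38.3 CPM, and that of 12 liver markers to 527.2, 1232, 620.0 and 650.2 CPM from lowest values of 215.6 to 297.6 CPM. The summed level of 10 oligodendrocyte markers, none at 0, ran from 7810 to 11675 CPM (median 8990) in vehicle with the neutral cue and from 4008 to 8397 CPM (median 7142) in CBD with that cue, a narrow overlap. With the anxiety cue it ran from 5966 to 12038 CPM (median 8139) in vehicle and from 5193 to 10039 CPM (median 7199) in CBD. In the 6 libraries with high Slc17a6 it was at 9455 CPM or more. In bulk tissue, fewer cells of a type and less RNA per cell cannot be told apart.

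The members differed in how far they moved with these markers. In the 6 libraries with high Slc17a6, Drd1 was at 56.6 to 179.4 CPM, against 255.1 to 474.8 CPM in the other 26. Fkbp5 was at 43.3, 49.6 and 56.3 CPM (lowest, median, highest) in the 6 and at 68.6, 92.7 and 117.4 CPM in the 26, with no overlap. Nr3c2 was at 35.7, 45.4 and 52.9 CPM in the 6 and at 47.5, 68.2 and 78.2 CPM in the 26. Both genes thus ran with Drd1, and Hsd11b1 did so more weakly, at a median of 23.1 CPM in the 6 and 32.8 CPM in the 26. Pdk4 had the reverse order, with a median of 8.38 CPM in the 6 against 4.72 CPM in the 26. Tsc22d3 had medians of 97.5 and 69.9 CPM and Zbtb16 of 53.9 and 35.5 CPM in the same order. Nr3c1, Sgk1, Ddit4 and Cdkn1a overlapped broadly, with medians of 76.3 and 84.4, 94.1 and 86.7, 97.8 and 98.4, and 9.13 and 8.16 CPM. These are descriptions of libraries set apart by a marker and carry no test.

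**Figure D2:**
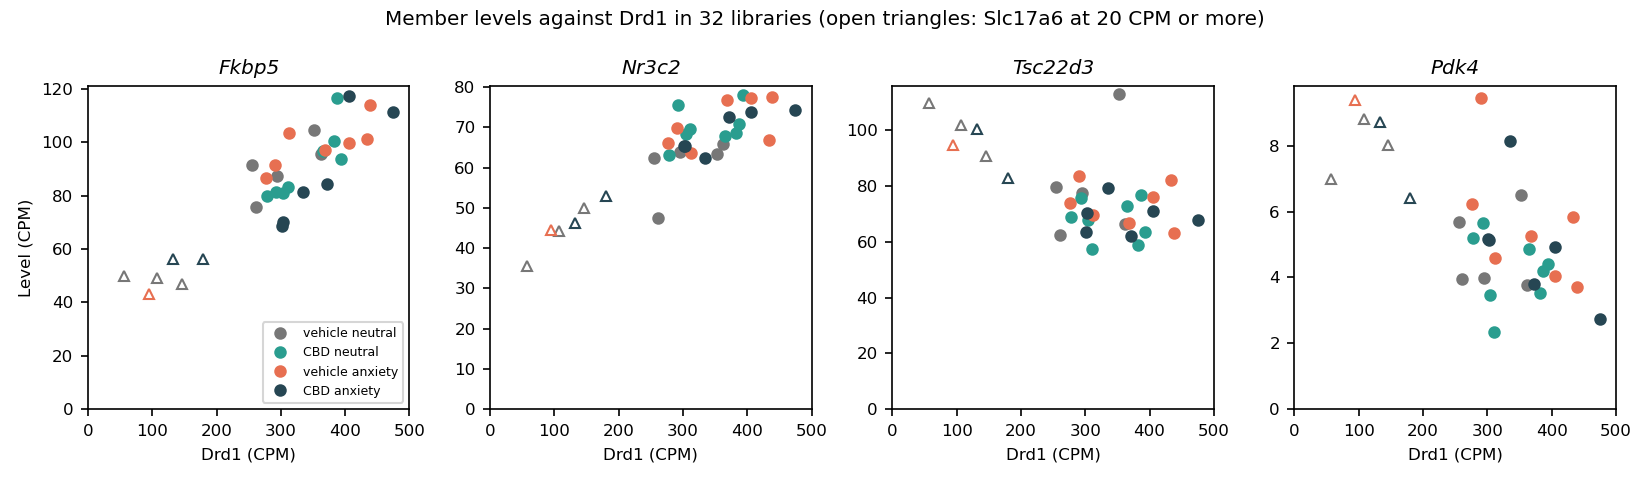
Levels of Fkbp5, Nr3c2, Tsc22d3 and Pdk4 (CPM) against Drd1 (CPM) in the 32 libraries, coloured by group; open triangles are the 6 libraries with Slc17a6 at 20 CPM or more. Those 6 lie at Drd1 levels up to 179.4 CPM and stand apart from the other 26, low for Fkbp5 and Nr3c2.

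The cue in vehicle-treated rats was examined first. Nr3c2 was higher with the anxiety cue by 0.33 on the log2 scale (SE 0.115, edgeR quasi-likelihood unadjusted p = 0.00805, adjusted p = 0.374). Fkbp5 had an estimate of 0.29 (SE 0.181), with a 95% interval of 0.949- to 1.58-fold, and Nr3c1 one of 0.12 (SE 0.089). Tsc22d3 lay at -0.20 (SE 0.113), and the other 6 genes were within 0.15 of 0. With 0 of 10 members called, the share was that of all genes, since 0% of the 17059 passed the adjusted threshold. At an unadjusted p under 0.05 the count was 1 of 10 members, beside 12.7% of all genes. The members' median of 0.00573 lay beside 0.000368 over all genes, with 5 estimates above 0 and 5 below.

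CBD under the anxiety cue gave estimates between -0.19 and 0.10. Fkbp5 had an estimate of -0.19 (SE 0.181), with a 95% interval of 0.679- to 1.13-fold. Zbtb16 lay at -0.15, Sgk1 at -0.12, and Hsd11b1 was the highest at 0.10 (SE 0.119). In the 10 libraries with high Alb, 4 of them in CBD and 2 in vehicle here, Hsd11b1 had a median of 33.8 CPM. Its median was 29.0 CPM in the other 22. Those 22 included all 6 libraries with high Slc17a6, where the median of Hsd11b1 was 23.1 CPM. The parts of liver tissue and of the Slc17a6 split in its value were not tested. The interval of Nr3c1 ran from 0.859- to 1.1-fold and that of Ddit4 from 0.837- to 1.05-fold, which bounds any difference in these genes more closely than in Pdk4, whose interval ran from 0.673- to 1.29-fold. Of the members, 0 of 10 passed either threshold, beside 0% of all genes after adjustment and 1.58% at an unadjusted p under 0.05. The members' median was -0.0883, with 8 of 10 below 0, and the median of all genes was -0.00331.

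CBD under the neutral cue gave estimates from -0.50 to 0.38. Tsc22d3 was lower in the CBD group by an estimate of -0.37 (SE 0.113, edgeR quasi-likelihood unadjusted p = 0.00243, adjusted p = 0.105). Cdkn1a stood at -0.42 (SE 0.13, unadjusted p = 0.00305, adjusted p = 0.109) and Pdk4 at -0.50 (SE 0.234, unadjusted p = 0.0400, adjusted p = 0.203). Nr3c2 stood at 0.38 in the other direction (SE 0.115, unadjusted p = 0.00259, adjusted p = 0.105). Induced targets of the receptor were thus found on both sides of 0, since Fkbp5 lay at 0.29 (SE 0.181) while Zbtb16 lay at -0.40 (SE 0.201) and Sgk1 at -0.15. After adjustment 0 of 10 members and 0% of all genes passed. At an unadjusted p under 0.05 the counts were 4 of 10 members and 22.6% of all genes, and the members' median was -0.119 beside 0.00548 over all genes. DESeq2's Wald test on the same libraries called 349 genes and 0 of the 10 members.

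Under CBD the cue comparison left 1 member at an unadjusted p under 0.05, beside 3.94% of all genes, and 0 of 10 after adjustment (0% of all genes). It was Cdkn1a, at 0.32 (SE 0.13, edgeR quasi-likelihood unadjusted p = 0.0196, adjusted p = 0.995). Pdk4 had an estimate of 0.43 with a 95% interval of 0.965- to 1.87-fold, and the other 8 genes lay between -0.18 and 0.14. This comparison and the last share the neutral-cue CBD libraries, in which Cdkn1a and Pdk4 were lowest.

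The interaction, which asks whether the cue difference under CBD departed from that under vehicle, had 0 of 10 members past the adjusted threshold (0% of all genes) and 3 of 10 at an unadjusted p under 0.05 (13.8% of all genes). These were Nr3c2 at -0.46 (SE 0.163, edgeR quasi-likelihood adjusted p = 0.321), Tsc22d3 at 0.34 (SE 0.16, adjusted p = 0.346) and Cdkn1a at 0.44 (SE 0.183, adjusted p = 0.333). Fkbp5 had the largest estimate in size, -0.48, with a 95% interval of 0.5- to 1.03-fold. Sgk1, Ddit4 and Hsd11b1 were each within 0.03 of 0. The vehicle neutral-cue group, which held 3 of the 6 libraries with high Slc17a6, enters this estimate, the cue comparison in vehicle and the CBD comparison under the neutral cue.

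**Figure D3:**
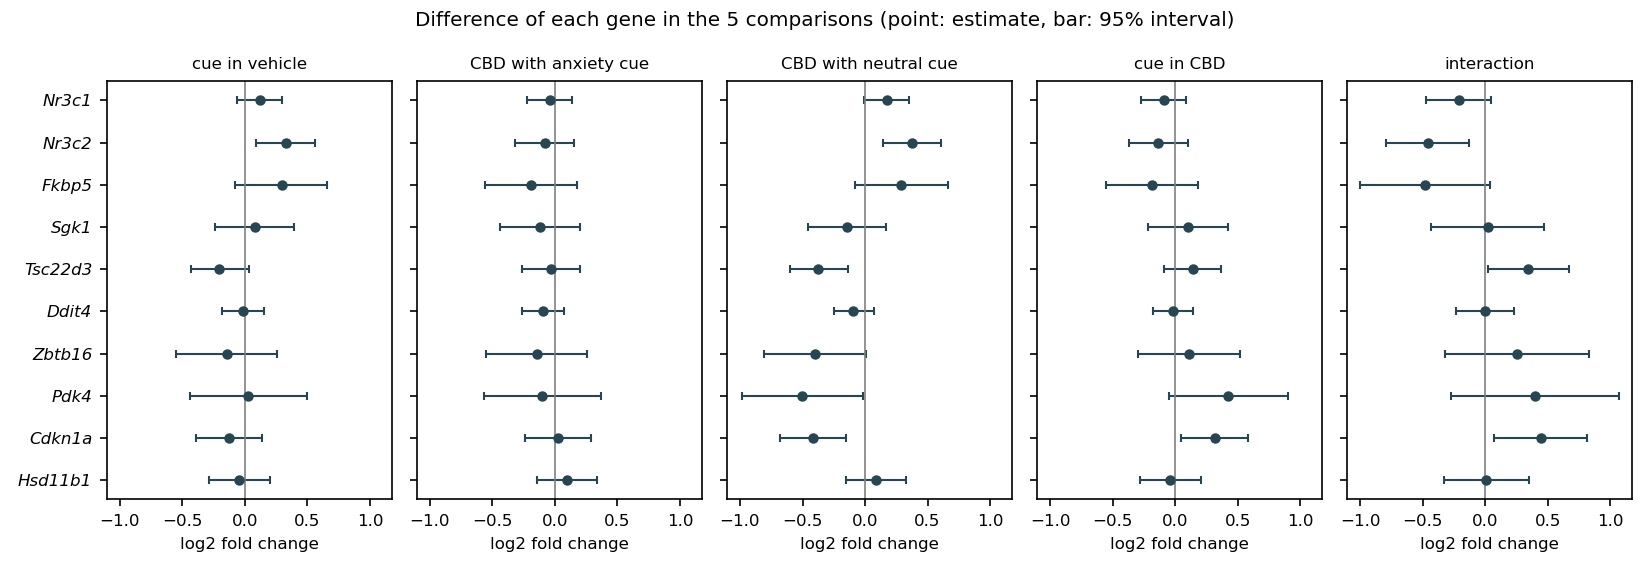
Log2 fold change of each gene (horizontal axis) in the 5 comparisons; points are edgeR estimates and bars 95% intervals. No member passed an adjusted p of 0.05, and with CBD under the neutral cue the intervals of Nr3c2, Tsc22d3, Pdk4 and Cdkn1a exclude 0.

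Tissue make-up was then carried through the neutral-cue CBD comparison in 2 ways. In the first, 4 covariates were added to the model, the mean log2 CPM of markers of subcortical neurons, cortical neurons, choroid plexus and oligodendrocytes. Nr3c2 then stood at 0.09 (SE 0.076) and Tsc22d3 at -0.08 (SE 0.091). Pdk4 moved from -0.50 to 0.11 (SE 0.189) and Fkbp5 from 0.29 to -0.11 (SE 0.121), each to the other side of 0. Cdkn1a alone of the 4 genes at an unadjusted p under 0.05 kept its size, at -0.40 (SE 0.154, unadjusted p = 0.0153, adjusted p = 1 in edgeR). With these covariates 1 of 10 members and 686 of 17059 genes had an unadjusted p under 0.05. The covariates held no fat or liver markers. Cdkn1a had a median of 9.37 CPM in the 10 libraries with high Plin1, 5 of them vehicle and 0 CBD under this cue. Its median was 7.98 CPM in the other 22, and the part of fat tissue was not tested.

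In the second, the 6 libraries with high Slc17a6 and the 1 with high Slc17a7 were left out. Cdkn1a was at -0.42 (SE 0.16, edgeR adjusted p = 0.378) and Nr3c2 at 0.20 (SE 0.075, adjusted p = 0.357). Tsc22d3 was at -0.22 (SE 0.11), Zbtb16 at -0.13 (SE 0.204), Pdk4 at -0.11 (SE 0.232) and Fkbp5 at 0.02 (SE 0.121). The estimate of Cdkn1a in the cue comparison under CBD, 0.32, was likewise 0.34 with the covariates and 0.33 without the 7 libraries. For Nr3c2 in the cue comparison in vehicle, 0.33 became 0.12 and 0.21.

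**Figure D4:**
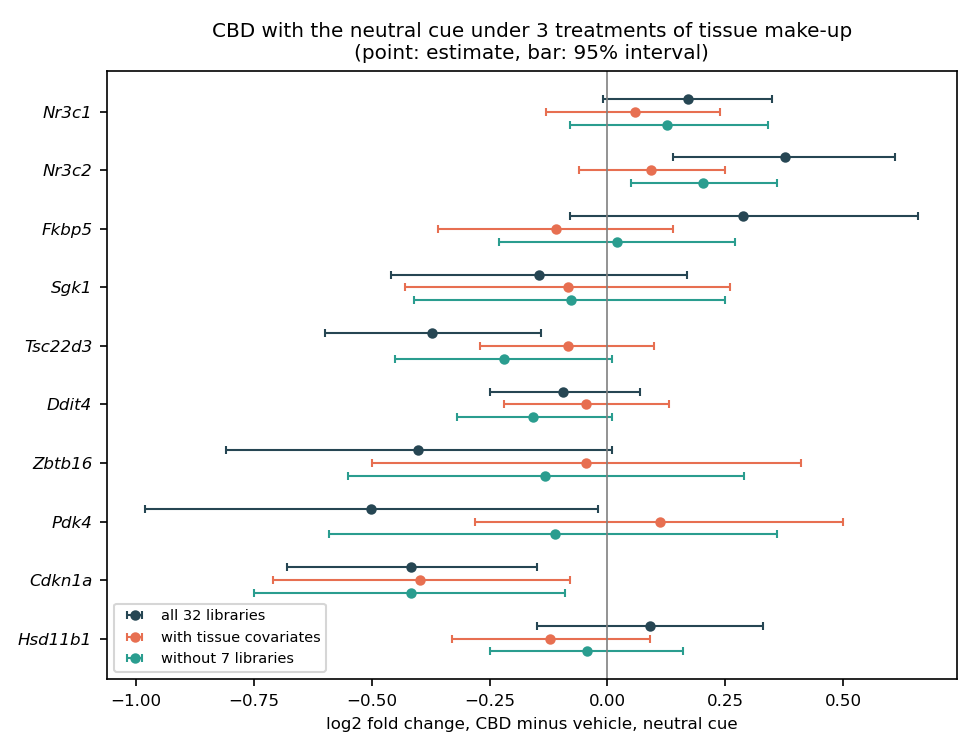
Log2 fold change of CBD against vehicle under the neutral cue for each gene with all 32 libraries, with 4 tissue covariates and without 7 libraries; points are edgeR estimates and bars 95% intervals. Cdkn1a stays between -0.42 and -0.40 while Pdk4 runs from -0.50 to 0.11.

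Leaving out the 10 libraries with high Plin1 had a different result and left only 3 libraries of vehicle with the neutral cue, 2 of them with high Slc17a6. Nr3c2 and Tsc22d3 then passed in the cue comparison in vehicle (0.45 and -0.52, edgeR adjusted p = 0.0144 and 0.00679), beside 16.9% of all genes. With CBD under the neutral cue 5 members passed, Nr3c2 at 0.41, Tsc22d3 at -0.60, Zbtb16 at -0.57, Pdk4 at -0.89 and Cdkn1a at -0.53 (edgeR adjusted p = 0.0172, 0.00328, 0.0319, 0.0144 and 0.0437), beside 15.7% of all genes. In the interaction Nr3c2 (-0.52) and Tsc22d3 (0.55) passed (edgeR adjusted p = 0.0328 and 0.0218), beside 8.4% of all genes. The part of the 2 high-Slc17a6 libraries in these calls was not tested.

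Other genes of the pathway came from 4 lists, and 0 of them passed the adjusted threshold in any comparison. Of the 29 further glucocorticoid-induced genes 28 were tested, and with CBD under the neutral cue 3 were higher and 4 lower at an unadjusted p under 0.05 (22.6% of all genes). The smallest p belonged to Tat, a liver aminotransferase, at 4.46 (SE 1.124, edgeR adjusted p = 0.0697); its levels were at most 0.337 CPM in vehicle and up to 10.0 CPM in CBD, where 4 libraries had high Alb, and the part of liver tissue was not tested. Gjb6, an astrocyte connexin, followed at -0.72 (SE 0.23), with means of 48.8 ± 20.1 CPM in vehicle and 29.7 ± 9.38 CPM in CBD (SD, n = 8 each). The 28 genes had a median of 0.0706 in this comparison. With the tissue covariates it was -0.0347, with 1 of 28 at an unadjusted p under 0.05 (686 of 17059 genes). Without the 7 libraries high in Slc17a6 or Slc17a7 it was -0.0223, with 3 of 28 at that p (1744 of 17244 genes). In the cue comparison in vehicle the smallest p belonged to Glul, glutamine synthetase, at -0.33 (SE 0.114), and to Gjb6 at -0.58 (SE 0.229). With CBD under the anxiety cue it belonged to Plin4 (-0.52) and Irs2 (0.29), for the cue under CBD to Nfkbia (0.27) and Arrdc2 (0.20), and in the interaction to Gjb6 (0.97) and Glul (0.42), all with an edgeR adjusted p of 0.321 or more.

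The receptor's chaperones and co-chaperones, which do not all act on it in the same way, lay on one side in the cue comparison in vehicle. There 13 of 13 estimates were below 0 with a median of -0.16, and 8 had an unadjusted p under 0.05 (12.7% of all genes). Fkbp4, a co-chaperone that opposes Fkbp5, was at -0.20 (SE 0.067, edgeR adjusted p = 0.374), and Stip1, which links Hsp70 to Hsp90, at -0.22 (SE 0.074, adjusted p = 0.374). With CBD under the neutral cue 11 of 13 were below 0 with a median of -0.139, and 6 had an unadjusted p under 0.05 (22.6% of all genes). The smallest p belonged to Bag1 at -0.23 (SE 0.063, edgeR adjusted p = 0.0829) and Stub1 at -0.22 (SE 0.073). With CBD under the anxiety cue 13 of 13 were above 0 (median 0.0357, all genes -0.00331). None had an unadjusted p under 0.05, beside 1.58% of all genes. In the interaction 13 of 13 were above 0 (median 0.177, all genes -0.00754), with 6 at an unadjusted p under 0.05 (13.8% of all genes). With the tissue covariates 11 of 13 were above 0 in the interaction, with 0 at that p (753 of 17059 genes). Without libraries high in Slc17a6 or Slc17a7 it was 13 of 13, with 5 at that p (1290 of 17244 genes). For the cue in vehicle and CBD under the neutral cue, the medians were -0.0534 and -0.0591 with the tissue covariates. There 10 and 13 of 13 were below 0, with 0 and 1 at an unadjusted p under 0.05 (948 and 686 of 17059 genes). Without the 7 libraries high in Slc17a6 or Slc17a7 the medians were -0.148 and -0.129. There 11 and 12 of 13 were below 0, with 4 and 2 at that p (1963 and 1744 of 17244 genes). The coregulators, which bind the hormone-bound receptor on chromatin, were on the other side, with 12 of 12 estimates above 0 in each of these comparisons (medians 0.135 and 0.185) and 12 of 12 below 0 in the interaction (median -0.252). Ncoa1 was at 0.27 (SE 0.081, adjusted p = 0.102) and Med1 at 0.23 (SE 0.069, adjusted p = 0.102) with CBD under the neutral cue. At an unadjusted p under 0.05 there were 6, 7 and 9 of 12, beside 12.7%, 22.6% and 13.8% of all genes. With the tissue covariates 12 of 12 were on the same sides, at medians of 0.0867, 0.0889 and -0.141. At that p there were 0, 0 and 1 of 12, beside 948, 686 and 753 of 17059 genes. Without the 7 libraries the sides were also the same, at medians of 0.126, 0.108 and -0.151. At that p there were 3, 5 and 2 of 12, beside 1963, 1744 and 1290 of 17244 genes. These 3 comparisons share the vehicle neutral-cue libraries.

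Of the 6 genes of corticosteroid metabolism and transport 4 were tested, and Srd5a1, a steroid reductase, was at 0.34 (SE 0.165) in the cue comparison in vehicle and at -0.55 (SE 0.234) in the interaction. Hsd11b2, which inactivates corticosterone, and Serpina6, its plasma carrier, were below the expression filter.

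Members were also compared with each other across libraries, after each group's mean was subtracted from the log2 CPM. Because the libraries with high Slc17a6 form a separate cluster, correlations are given over the other 25, from which the library with high Slc17a7 was also left out. All 45 pairs were examined, a choice made after the data had been seen, with p-values from 100000 permutations within groups, two-sided, and Benjamini-Hochberg adjustment over the 45. Of these, 6 passed an adjusted p of 0.05 by r. The share that would pass among all pairs of genes is not given here, so this count has no background beside it. Tsc22d3 and Zbtb16 had r = 0.67 (rho = 0.753, permutation p = 0.00024, adjusted 0.0048), and 0.711 without the 2 libraries farthest from the median of Tsc22d3. For each pair below, the 2 are likewise those of its first named gene alone. Zbtb16 and Pdk4 had r = 0.709 (rho = 0.654, permutation p = 0.00047, adjusted 0.00529), and 0.583 without the 2. Tsc22d3 also paired with Ddit4 at r = 0.675 (rho = 0.635, permutation p = 0.00031, adjusted 0.0048; 0.612 without the 2) and with Pdk4 at r = 0.634 (rho = 0.663, permutation p = 0.00032, adjusted 0.0048; 0.641 without the 2). Weaker was the pair of Zbtb16 and Cdkn1a, at r = 0.579 (rho = 0.558, permutation p = 0.00597, adjusted 0.0448), which was 0.506 without the 2 and 0.487 without vehicle anxiety-cue library 3. By rho this pair did not pass (adjusted permutation p = 0.06). The receptors Nr3c1 and Nr3c2 had r = 0.658 (rho = 0.597, permutation p = 0.00078, adjusted 0.00702; 0.598 without the 2).

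Against all genes these pairs stood at different places. Ranks by r are among the 17058 other genes tested and depend on which gene of a pair is the reference. For Zbtb16, Pdk4 was at rank 2 and Tsc22d3 at rank 6, while for Pdk4, Zbtb16 was at rank 9 and Tsc22d3 at rank 41. For Tsc22d3, Ddit4 was at rank 55, Zbtb16 at 63 and Pdk4 at 143, and for Ddit4, Tsc22d3 was at rank 9. The receptors were at rank 1114 (Nr3c2 for Nr3c1) and 479 (Nr3c1 for Nr3c2). Among the 7 induced targets 20 of 21 pairs were positive, beside 10 of the other 24 member pairs. The exception was Fkbp5 with Pdk4 (r = -0.321). The share of positive pairs over all genes is not given, so whether this is particular to the targets was not tested. Without the libraries high in Plin1, 17 of the 21 were positive, none passed and the lowest r was -0.492. Fkbp5 was in none of the 6 pairs over the 25 libraries. Its highest r with a member was with Nr3c2 (0.503, rho = 0.485, permutation p adjusted over the 45 pairs 0.0663). Over all 32 libraries with the tissue covariates removed, 3 of its 9 pairs passed. These were Ddit4 (r = 0.588, rho = 0.462, permutation p adjusted over the 9 pairs 0.00405), Nr3c1 (r = -0.497, rho = -0.481, adjusted permutation p 0.0343) and Hsd11b1 (r = 0.489, rho = 0.415, adjusted permutation p 0.0343).

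Within groups of at least 6 libraries, Tsc22d3 and Zbtb16 had r = 0.532 in CBD with the neutral cue (n = 7), 0.672 in vehicle with the anxiety cue (n = 7) and 0.963 in CBD with the anxiety cue (n = 6). Zbtb16 and Pdk4 had 0.377, 0.869 and 0.566 in the same order. Over the 25 libraries with the 4 tissue covariates removed, 7 of 45 pairs passed, all among the targets other than Fkbp5, with Tsc22d3 and Zbtb16 at 0.804. Pdk4 and Zbtb16 were also set against Plin1, over all 32 libraries with the groups pooled. Pdk4 had a median of 6.34 CPM in the 10 libraries with high Plin1 and 5.03 CPM in the other 22, and Zbtb16 medians of 42.6 and 37.9 CPM. Without those with high Plin1, 18 of the 25 libraries remained and 0 of 45 pairs passed. Tsc22d3 and Zbtb16 were then at r = 0.57 and Zbtb16 and Pdk4 at 0.375, and the part of fat tissue in the pairs was not tested.

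**Figure D5:**
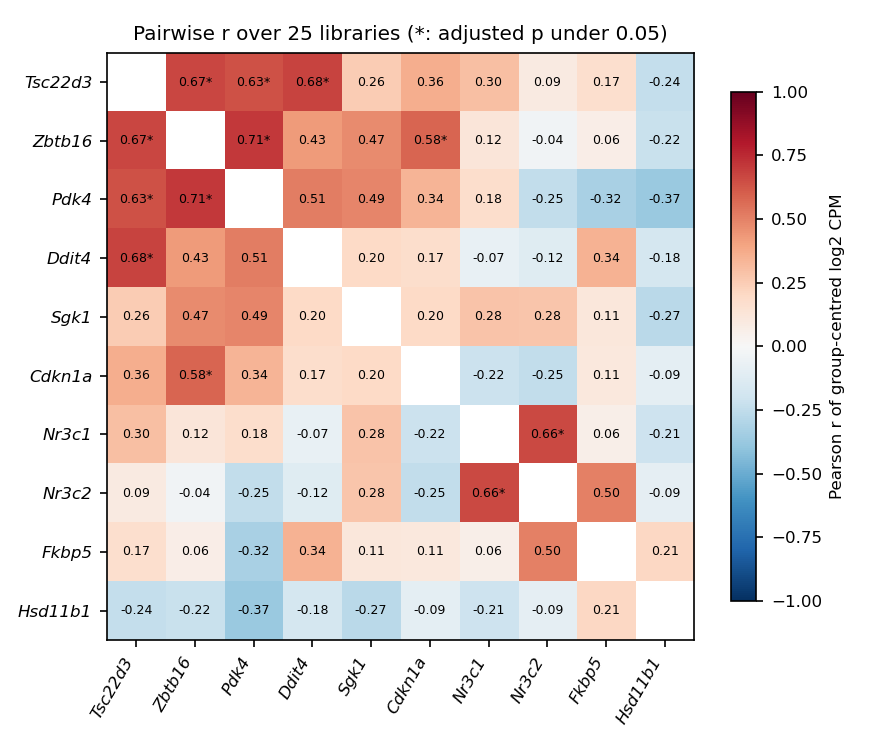
Pearson r between every pair of the 10 genes over 25 libraries, computed on log2 CPM with group means removed; the colour gives r and an asterisk an adjusted permutation p under 0.05. The asterisks lie among Tsc22d3, Zbtb16, Pdk4, Ddit4 and Cdkn1a and on Nr3c1 with Nr3c2.

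The genes most like each member were read from the same group-centred values, passing over genes known only by a locus number. Over the 25 libraries, a subset chosen after the data had been seen, those nearest to Fkbp5 were Mapk4 (r = 0.875), Rgs8 (0.87) and Tpm1 (0.87). Those nearest to Nr3c2 were Sgip1 (0.87), Wdr17 and Dmtf1, and those nearest to Nr3c1 were Zfp148 (0.935), Chl1 and Nedd4. Zbtb16 was nearest to Thnsl2 (0.777), Pdk4 to Cav2 (0.785), Cdkn1a to Thnsl2 (0.735), Ddit4 to Rab5c (0.72), Hsd11b1 to Adk (0.732) and Sgk1 to Tjp1 (0.686). Tsc22d3 was nearest to the pseudogene Zfp773-ps1 (0.783), then to Gpbp1l1 and Rab5b. Over all 32 libraries the nearest genes were Klf9 for Fkbp5, Lrrtm3 for Nr3c2, Zfp445 for Nr3c1, Mtmr2 and then Tsc22d3 for Zbtb16, Mettl7a for Pdk4, Tmem100 for Tsc22d3, Nfkbia for Ddit4, Pold4 for Cdkn1a, Agmat for Hsd11b1 and Psme4 for Sgk1, with no pooled r given because the libraries form separate clusters. Over all 32 libraries, 5 genes known only by a locus number ranked above Psme4 for Sgk1 and 1 above Pold4 for Cdkn1a. All these likenesses share library, depth and tissue make-up.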

How the data were processed

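RNA from the nucleus accumbens shell was polyA selected and sequenced, per the labels' protocols. The deposited values are raw read counts per gene for 32 libraries; STAR, featureCounts and DESeq2 and the builds mRatBN7.2 and Rnor_6.0 are named in the submitters' processing notes, with versions and roles not given in the sources used here. Strand handling is not stated either, so overlapping and antisense reads cannot be separated. Low genes were filtered by group with filterByExpr, which left 17059 of 34322 symbols and all 10 members. Counts were scaled by the trimmed mean of M-values (factors 0.936 to 1.04) and fitted in edgeR 4.0.16 (R 4.3.3, limma 3.58.1) by the quasi-likelihood test in 1 model of the 4 groups, with a threshold of 0.05 on adjusted p. Log2 CPM used a prior count of 2. The fit was tested on simulated counts drawn independently for each gene. These held none of the shared tissue differences between libraries, so that test does not cover their effect. Within groups, 112 pairs of libraries differed by at least 5.56 times counting noise (chi-square per degree of freedom), and 0 were identical. Alternatives were DESeq2 1.42.0, voom, other filters, tissue covariates and left-out libraries. The members, lists and tests were chosen with earlier results of these data known. Named were all 10 members, at most the 2 genes of smallest p per pathway list and comparison, and up to 3 genes nearest each member by correlation. Results of 1 further gene list are not reported here.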

Additional observations from a re-analysis of the deposited data

Results flagged for a closer look

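In 6 of the 40 combinations of gene and group, 1 library stood apart from the other 7 on the log2 CPM scale by Dixon's gap test, where chance flags about 1 in 20 groups. Vehicle anxiety-cue library 5, one of the 6 with high Slc17a6 and with Drd1 at 94.8 CPM, was the lowest of its group for 3 genes: Nr3c2 at 44.49 CPM (next 63.55), Fkbp5 at 43.25 CPM (next 86.71) and Hsd11b1 at 20.75 CPM. Vehicle anxiety-cue library 3, with Plin1 at 21.7 CPM and Drd1 at 290.1 CPM, was the highest of its group for Sgk1 at 172.7 CPM (next 107.4). It was also the highest for Zbtb16 (71.4 CPM), Pdk4 (9.46 CPM) and Cdkn1a (12.0 CPM), which were not set apart by the same test. For Nr3c1, vehicle anxiety-cue library 2 was the lowest of its group at 62.1 CPM (next 79.24), and CBD anxiety-cue library 3 the highest of its group at 99.98 CPM (next 86.21).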

How the results depend on the processing

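Depth limits Pdk4 and Cdkn1a most, with as few as 36 and 93 reads in a library. No paired analysis was possible because the labels give no replicate number shared between groups. Counts of called genes were 0 with all 32 libraries in edgeR and moved as follows. Without the libraries high in Slc17a6 or Slc17a7 they were 13 (cue in vehicle) and 18 (CBD, neutral cue); without those high in Plin1 2972, 2761 and 1475 (interaction), with 2, 5 and 2 members; CBD with the neutral cue gave 349 with DESeq2, 1 with voom and 4 with only its 2 groups, and the interaction 11 with DESeq2. Leaving out 1 library gave 0 to 165 for CBD with the neutral cue (165 without vehicle anxiety-cue library 5, 68 without library 4), 0 to 10 for the interaction (10 without library 5), and 0 members in each comparison.

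Log2 estimates that changed side of 0, all with an adjusted p of 0.0726 or more in the tool named (edgeR elsewhere), were these. With tissue covariates: cue in vehicle Fkbp5 -0.0169, Sgk1 -0.0245 and Zbtb16 0.0908; CBD with the anxiety cue Sgk1 0.0587 and Pdk4 0.058; CBD with the neutral cue Fkbp5 -0.108, Pdk4 0.111 and Hsd11b1 -0.121; cue under CBD Tsc22d3 -0.0234, Zbtb16 -0.0728 and Hsd11b1 0.0542; interaction Zbtb16 -0.164 and Pdk4 -0.0529. Without high Slc17a6 or Slc17a7, in the same order: Zbtb16 0.138, then Nr3c1 0.00499, then Hsd11b1 -0.0431, then Sgk1 -0.0355, Tsc22d3 -0.00406, Zbtb16 -0.0741 and Hsd11b1 0.0131, then Sgk1 -0.177, Ddit4 0.00882, Zbtb16 -0.212 and Pdk4 -0.0422. Without high Plin1: Sgk1 -0.153, Pdk4 -0.647 and Hsd11b1 0.11, then Sgk1 0.00181, then under CBD Zbtb16 -0.121 and Hsd11b1 0.00168, and in the interaction Hsd11b1 -0.108. Without high Alb: with the anxiety cue Tsc22d3 0.13, Ddit4 0.0317, Zbtb16 0.104, Pdk4 0.107 and Cdkn1a -0.0248, with the neutral cue Hsd11b1 -0.0321, and Ddit4 0.0121 (cue under CBD) and 0.0466 (interaction). With voom: Sgk1 -0.0404 (cue in vehicle) and Hsd11b1 -0.0424 (interaction). The interaction of Ddit4 was also 0.00155 with DESeq2, 0.000737 with its size factors, 0.0153 without a filter and 0.00118 with a 1 CPM filter. The causes were not tested.

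On leaving out 1 library, estimates that crossed 0 ranged, for the cue in vehicle, over -0.0871 to 0.164 (Sgk1), -0.0489 to 0.0378 (Ddit4), -0.0953 to 0.129 (Pdk4) and -0.0972 to 0.0136 (Hsd11b1). For CBD with the anxiety cue they ranged over -0.188 to 0.0416 (Sgk1), -0.101 to 0.0222 (Tsc22d3), -0.295 to 0.00716 (Zbtb16), -0.22 to 0.0187 (Pdk4) and -0.0312 to 0.0965 (Cdkn1a). For the cue under CBD they ranged over -0.0587 to 0.0198 (Ddit4), -0.0378 to 0.184 (Zbtb16) and -0.0875 to 0.0254 (Hsd11b1), and for the interaction over -0.0638 to 0.187 (Sgk1), -0.0544 to 0.0343 (Ddit4) and -0.051 to 0.0718 (Hsd11b1). With CBD under the neutral cue none of the 10 crossed 0.

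Of the 9 pairs of Fkbp5, 3 passed over all 32 libraries (3 to 4 on leaving out 1), and 0 passed without high Slc17a6 or Slc17a7, also without the 2 farthest of the rest, and 0 without high Alb or Plin1. With tissue covariates over all 32, 3 passed (Ddit4, Nr3c1 and Hsd11b1). Of the 45 pairs, 6 passed over 25 libraries and 13 over all 32. With tissue covariates removed over the 25 libraries 7 passed, and 0 passed in the 18 of the 25 without high Plin1. The 45 pairs and these settings were chosen after seeing the data.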
